A study of Equus caballus with 19 samples.

Results

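The 79 transcripts described here, called the members below, gave the highest signals among the genes that could be named on arrays of horse blood. They were chosen by their own measured level. The log2 signal was averaged over the probes of a gene and then over all 19 horses of both groups, and the genes at ranks 1 to 80 of the 799 named genes were taken. ANXA2, at rank 46, was left out of them beforehand. The level, the rank and the membership are therefore descriptions and no findings. The rule did not use the groups, but near its limit the mean over both groups lets a difference between them decide. Ranked by the control horses alone or by the EE-treated horses alone, 78 members were among the 80 highest each time. MX1 was at rank 58 by the control horses and at rank 108 by the EE-treated horses, and MMP9 at 81 and 66. The last genes inside the limit were TXN with a mean log2 signal of 12.90, MDH2 with 12.88 and MX1 with 12.84, and the first outside it were DENND1C with 12.84, TLR2 with 12.81 and RBM8A with 12.76. In all, 2134 of the 42402 genes and unnamed probes measured were at least as bright as MX1, and 2054 of these were probes with no name here.

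Whole venous blood came from 19 prepubertal Welsh foals, weaned and reared together before the experiment and not yet a year old at its start. The 9 control horses (6 males and 3 females), labelled as impoverished, had a small stall each, with no physical contact to other horses, short outings alone and a plain ration. The 10 EE-treated horses (4 males and 6 females), where EE stands for environmental enrichment, shared a pasture whenever they were not in their roomier daytime stalls. Their meals changed in content and flavor, unfamiliar objects and scents were brought in week by week, and music was played on most days. Blood was taken at the end of 12 weeks into tubes that stabilize RNA, and the RNA of each horse was labelled with a single dye and hybridised to 1 array.

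Blood RNA comes mainly from white cells, with a share from platelets and immature red cells. Horses are known for keeping immature red cells in the bone marrow, so that few of them circulate. In white cells of many species the most plentiful messages serve protein synthesis, the actin skeleton that lets the cells crawl, the display of peptides to T cells, and the storage of antimicrobial proteins.

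Each log2 signal given here comes from an array whose 75th percentile was set to 500, which is the normalization of the study's methods. Every probe of all 79 members was well above background on all 19 arrays, and 0 spots were saturated. The members rested on 232 probes. For 34 members there was 1 probe, and for the other 45 the probes of a gene spanned a median of 0.54 log2 units. Probes of GAPDH spanned 5.37, those of UBB 4.27 and those of HSP90AB1 3.19, so the place of a gene in the ranking depends on its probes and is no measure of molecules. The unscaled 75th percentile averaged 588 ± 102 (SD, n = 9) for control arrays and 524 ± 134 (SD, n = 10) for arrays of EE-treated horses, with its lowest value of 346 on the array of horse648. The arrays lay on 5 slides that each held horses of both groups. The 9 control arrays lay at positions 2 (4 arrays) and 4 (5 arrays) of a slide and the arrays of EE-treated horses at positions 1 (4 arrays), 3 (5 arrays) and 2 (1 array), so position and treatment cannot be told apart, with slide as a block or without. The 3 arrays of slide 5 were scanned in a session of their own.

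**Figure D1:**
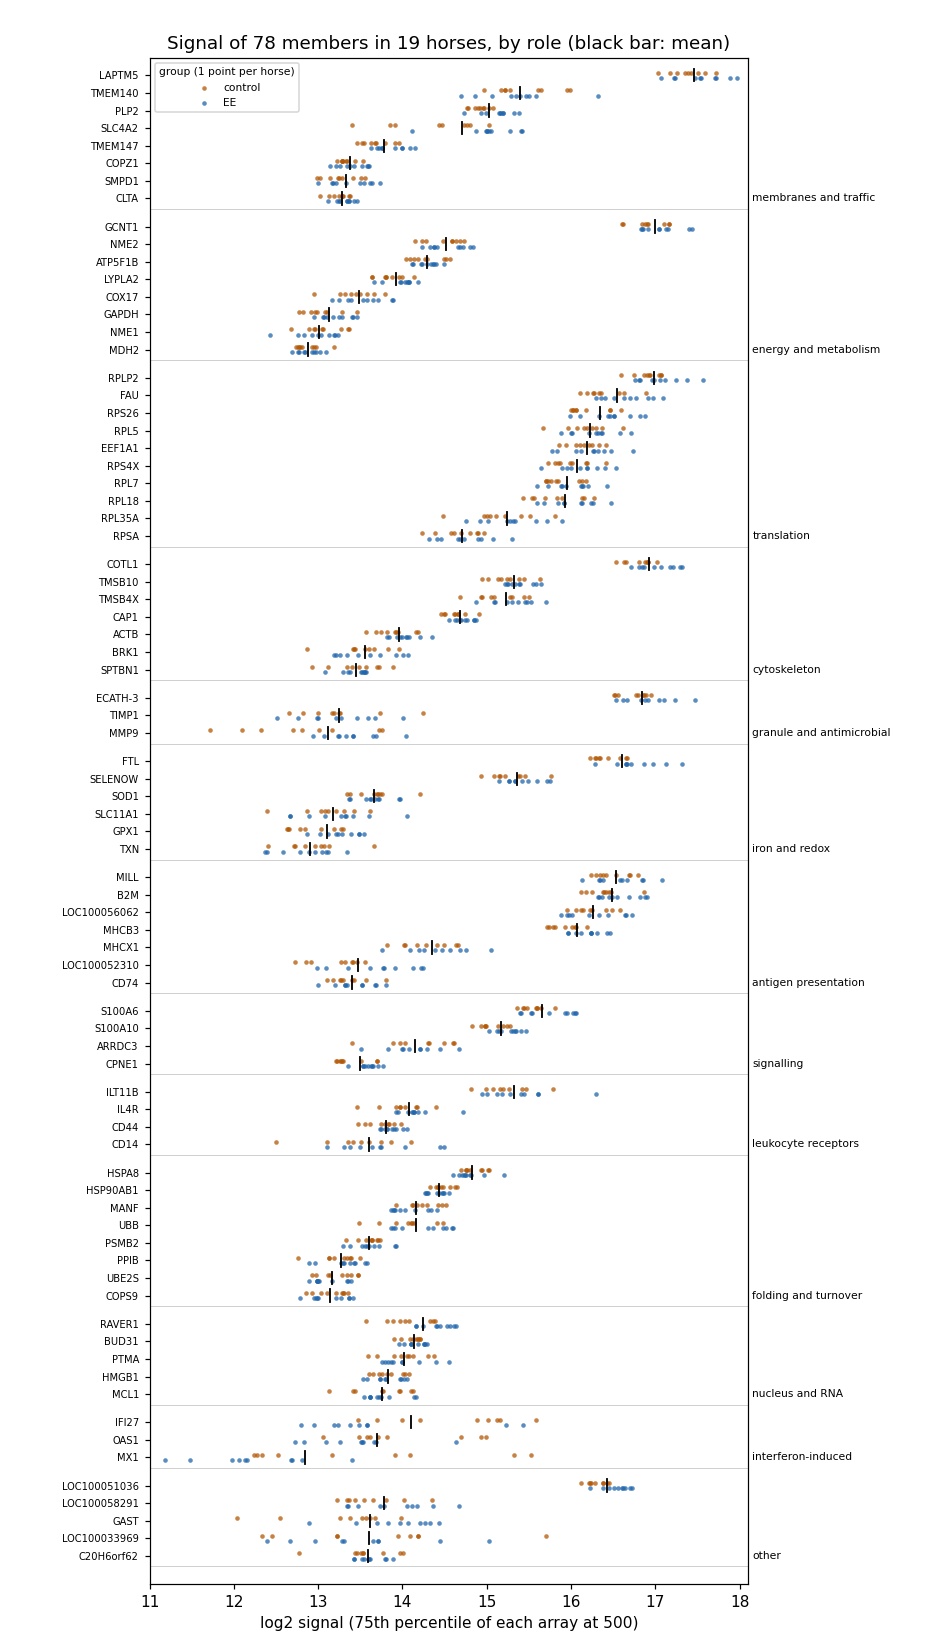
Log2 signal of 78 of the 79 members, sorted by role, in each of the 19 horses (1 point per horse, control and EE-treated horses in different colours, black bar for the mean over all horses). The means run from 17.46 for LAPTM5 down to 12.84 for MX1, and the points of MX1, IFI27 and LOC100033969 spread more widely than those of the other members.

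The gene with the highest mean signal was LAPTM5, a lysosomal membrane protein of blood cells that dampens antigen receptor signalling. Its log2 signal ran from 17.03 over a median of 17.38 to 17.72 in the control horses and from 17.07 over 17.54 to 17.97 in the EE-treated horses. The ranges of the groups were largely shared, with 3 EE-treated horses above every control horse and 0 below every control horse. After it came GCNT1, an enzyme that builds branched sugar chains on cell surface proteins, with a mean of 16.99. RPLP2, an acidic protein of the large ribosomal subunit, had the same rounded mean of 16.99. COTL1, which binds filamentous actin, had a mean of 16.92. ECATH-3, a horse cathelicidin whose peptide kills bacteria, had a mean of 16.84. The next were FTL, the light chain of the iron store ferritin, at 16.61, FAU, a ribosomal protein fused to a ubiquitin-like domain, at 16.54, and MILL, an MHC class I-like gene listed in the reference as a transcribed pseudogene, also at 16.54. B2M, the light chain shared by all class I molecules, stood at 16.49. LOC100051036, for which the reference gives no named function, closed the first 10 at 16.43.

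By role, 10 members served translation. They were the ribosomal genes RPLP2, FAU, RPS26, RPL5, RPS4X, RPL7, RPL18, RPL35A and RPSA, and EEF1A1, the factor that brings charged tRNA to the ribosome, with mean log2 signals from 14.71 to 16.99. Antigen presentation had 7 members: B2M, MHCB3, MHCX1 and LOC100056062 of class I, the class I-like MILL, the class II beta chain LOC100052310, a DRB gene by its synonym, and CD74, the chaperone of class II molecules. Another 7 belonged to the cytoskeleton: the actin-binding or actin-regulating COTL1, TMSB10, TMSB4X, CAP1 and BRK1, the actin gene ACTB, and the spectrin gene SPTBN1. Granule and antimicrobial proteins gave 3 members, ECATH-3, the matrix protease MMP9 of neutrophil granules, and its inhibitor TIMP1. Leukocyte receptors gave 4, of which ILT11B is a receptor of the immunoglobulin-like transcript family, IL4R the receptor chain for interleukins 4 and 13, CD44 the hyaluronan receptor and CD14 the lipopolysaccharide co-receptor of monocytes.

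Energy and other metabolism held 8 members. GAPDH acts in glycolysis, MDH2 in the citrate cycle, ATP5F1B in ATP synthase and COX17 in copper delivery to cytochrome oxidase, NME1 and NME2 balance nucleotides, LYPLA2 removes lipid anchors, and GCNT1 was placed here as a sugar-transferring enzyme. Iron and redox genes numbered 6, with FTL, the metal transporter SLC11A1 of phagosomes, the peroxide-removing GPX1, the superoxide dismutase SOD1, thioredoxin TXN and the selenoprotein SELENOW. Folding and turnover gave 8: the chaperones HSPA8 and HSP90AB1, the prolyl isomerase PPIB and MANF of the endoplasmic reticulum, ubiquitin UBB, the ubiquitin-conjugating UBE2S, the proteasome subunit PSMB2 and the signalosome subunit COPS9. In the nucleus 5 members act, RAVER1 and BUD31 in splicing, HMGB1 and PTMA with chromatin, and MCL1, an inhibitor of apoptosis that the list placed with transcription. Signalling had 5, among them the calcium-binding S100A6 and S100A10, the calcium-dependent lipid-binding CPNE1 and the arrestin-like ARRDC3.

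A further 8 members sit in membranes or serve traffic between them: LAPTM5, the anion exchanger SLC4A2, PLP2, TMEM140, TMEM147, the coat proteins COPZ1 and CLTA, and the lysosomal sphingomyelinase SMPD1. The interferon-induced genes were MX1 and OAS1, which act against viruses, and IFI27. The other 5 were LOC100051036, LOC100058291, LOC100033969, C20H6orf62 and GAST, the gene of the stomach hormone gastrin, which rested on 1 probe.

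Most members varied little between horses of the same group. The SD within groups had a median of 0.24 log2 units over the members, against 0.23 over all genes and probes as bright as they were, 0.38 over the 799 named genes and 0.37 over the whole table. It was under 0.2 for 23 members and over 0.5 for 6. The steadiest member was HSP90AB1, a chaperone of kinases and steroid receptors, with an SD of 0.105. Its log2 signal ran from 14.33 over a median of 14.45 to 14.65 in the control horses and from 14.27 over 14.42 to 14.55 in the EE-treated horses. CLTA, a light chain of clathrin, had an SD of 0.109, the splicing factor BUD31 of 0.111 and CAP1, which recycles actin, of 0.124.

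The member that varied most was MX1, a GTPase that blocks viruses inside cells and is switched on by interferon, with an SD of 1.01. It ran over 4.35 log2 units from EE-treated horse648 to control horse476, the widest range of any member, whereas the narrowest was 0.381. It stood at rank 80, next to the limit, and 78 of the 79 members were still among the highest 80 without control horse476. The other 2 interferon-induced genes also varied widely, IFI27 with an SD of 0.83 and OAS1 with an SD of 0.62. LOC100033969, with no named function in the reference, had an SD of 0.91. Its signal ran from 12.33 over a median of 13.95 to 15.70 in the control horses and from 12.39 over 13.48 to 15.03 in the EE-treated horses, so both groups held low and high animals. GAST had an SD of 0.54 and MMP9 of 0.53. Over all 19 horses 29 members ranged over more than 1 log2 unit.

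**Figure D2:**
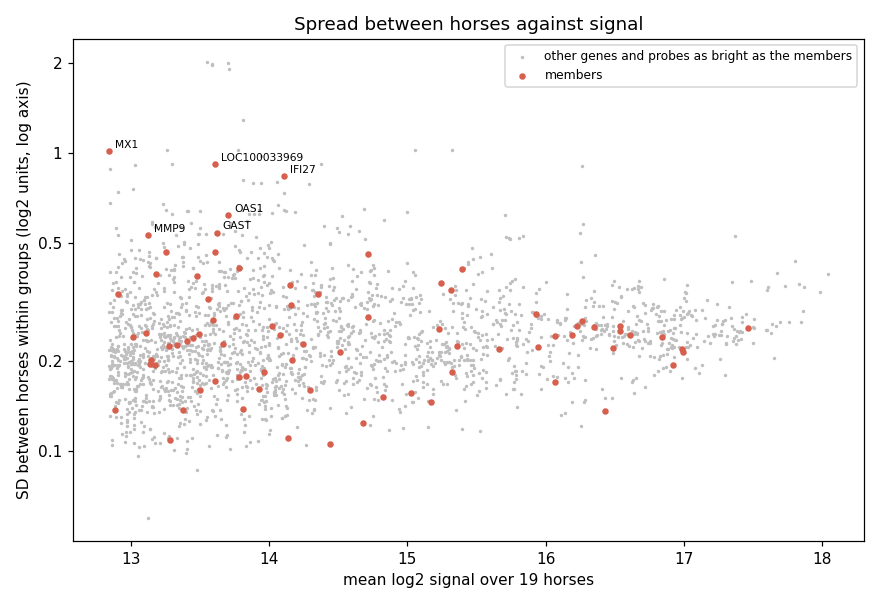
SD between horses within groups (vertical, log axis, log2 units) against mean log2 signal over 19 horses, for 78 of the 79 members and for the other genes and probes at least as bright. The members lie among the other points, with a median SD of 0.24 against 0.23, and the 6 with an SD over 0.5 are named.

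Horses differed in the members as a set. EE-treated horse648 had the highest signal of the 19 horses for 21 members and EE-treated horse469 for 14, while control horse477 had the lowest for 17 and control horse476 for 10. EE-treated horse649 lay above the mean of its group for 8 of the 79 members. The median log2 signal over the members still spanned little, from 13.99 to 14.24 in the control horses and from 14.02 to 14.37 in the EE-treated horses, and the groups overlapped. Part of this order moved with the scaling. After quantile normalization, which gives every array the same distribution of signals, EE-treated horse648 was highest for 7 members and control horse477 lowest for 5, whereas control horse476 was lowest for 16 and EE-treated horse475 highest for 10.

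The translation genes moved together from horse to horse. EE-treated horse648 had the highest signal for all 10 of them, and control horse476 had the lowest for 5. This depended on the scaling, since after quantile normalization the horse most often highest was control horse471, for 3 of the 10. As a description over 19 horses, with each value taken as the deviation from the mean of its group, the median correlation between pairs of translation genes was 0.85, against 0.18 between pairs of all members. These deviations share the array and its scaling, and after quantile normalization the same medians were 0.57 and 0.0078. The interferon-induced genes had a median of 0.56, and 0.54 after quantile normalization. The 4 leukocyte receptors had 0.54, and 0.43 after quantile normalization. For antigen presentation it was 0.060 and for the cytoskeleton 0.056, both below the 0.18 of all members. After quantile normalization these 2 roles had 0.16 and -0.18, so antigen presentation then lay above the 0.0078 of all members.

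**Figure D3:**
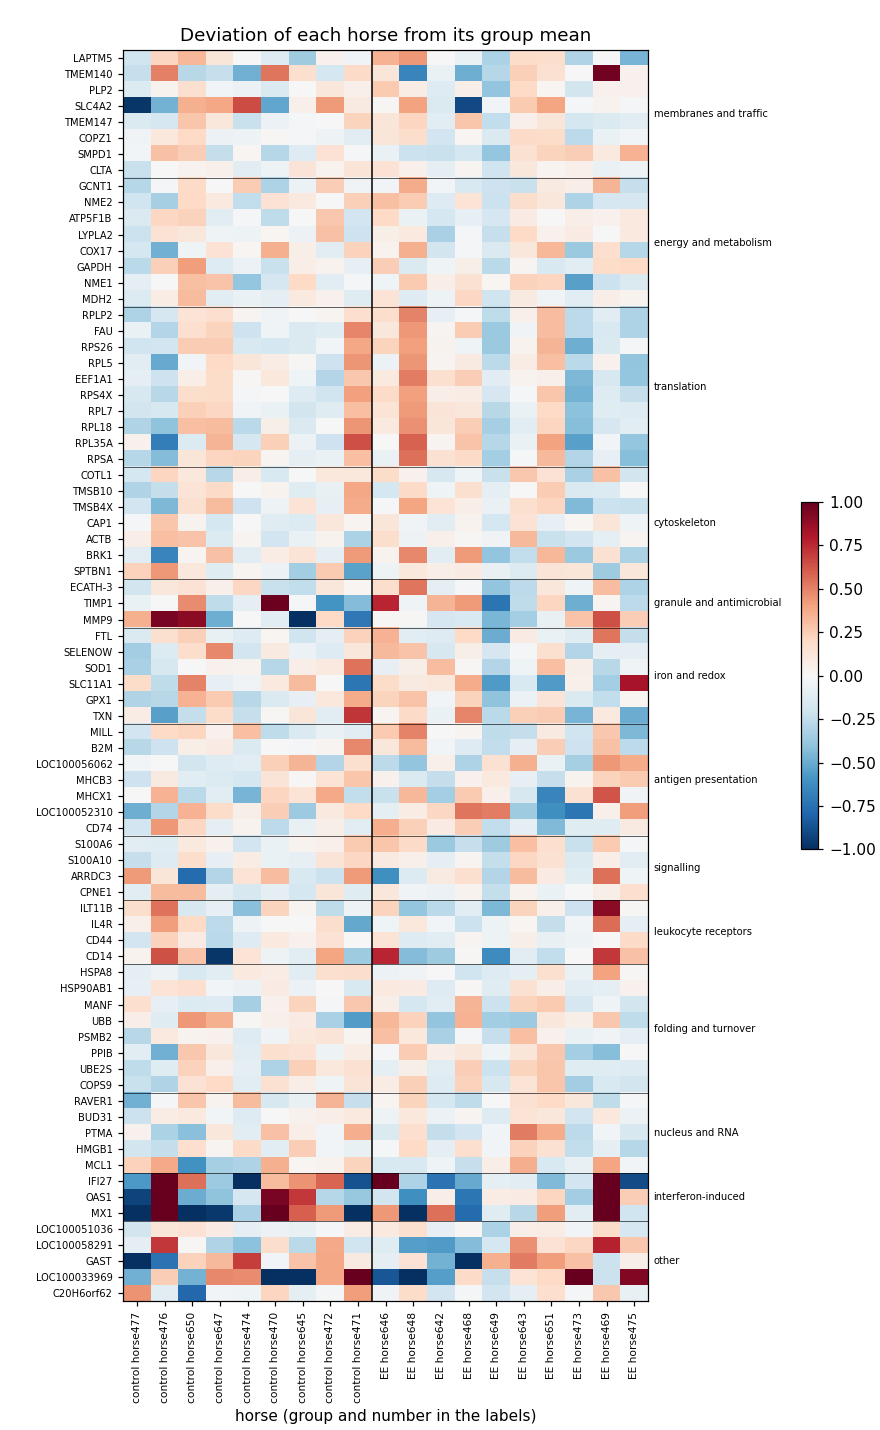
Deviation of each horse (columns, named by group and number, control to the left of the line) from the mean of its group, in log2 units with colours ending at ±1, for 78 of the 79 members (rows, by role). The translation rows of EE-treated horse648 form a block of high values, and control horse476 is high in all 3 interferon-induced rows. Deviations beyond ±1 occur for MX1 in 7 horses, LOC100033969 in 5, IFI27 in 4, OAS1 and GAST in 2 each and MMP9 in 1.

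The comparison of EE-treated with control horses asks whether 12 weeks of enrichment left a difference in blood RNA. Most members had a slightly higher signal in the EE-treated horses, the interferon-induced genes a lower one, and 1 member passed the threshold of the study's methods. Of the 79 differences, 62 were above 0. They ran from -1.23 for MX1 to 0.64 for SLC4A2 with a median of 0.12. That lean was not particular to the members. The estimates were above 0 for 79.6% of the genes and probes as bright as the members, whose median was 0.10, and for 60.2% of the whole table, whose median was 0.063. In whole blood, fewer cells of a type and less RNA per cell cannot be told apart.

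At an unadjusted p under 0.005 in limma with a difference of at least 20%, 1 of 79 members was called, RAVER1, beside 1.83% of the whole table and 2.58% of the genes and probes as bright as the members. At an unadjusted p under 0.05, 15 members were higher in the EE-treated horses, beside 7.45% of the whole table and 14.4% of the as bright ones. At the same p, 2 members were lower, beside 4.27% and 1.31%. MMP9 was among the 15 and MX1 among the 2, and each is a member only through the group where it was higher. After Benjamini-Hochberg adjustment over the whole table, limma left 0 members under 0.05, with a smallest adjusted p of 0.243, and 0% of the whole table. The ranges of the groups overlapped in every member. How often this holds over the whole table was not counted, so it does not set the members apart.

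The lean depended on the scaling. After quantile normalization 36 of the 79 differences were above 0 and their median was -0.0081, and the median of the whole table moved from 0.063 to -0.0020. Then 6 members were higher at an unadjusted p under 0.05, beside 6.1% of the whole table and 6.75% of the as bright ones, and 7 were lower, beside 5.37% and 3.56%. Of the 17 members at this p in the main scaling, 8 were also there, and all 17 had the same sign. The 26 members that changed sign all went from above to below 0. Within the slides, the median difference over the members was 0.29 on slide 1, which carried the arrays of control horse477 and EE-treated horse648, and 0.037, 0.10, 0.083 and 0.077 on slides 2 to 5. Of the 15 members that were higher at this p, 6 were higher on all 5 slides and the other 9 on 4.

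**Figure D4:**
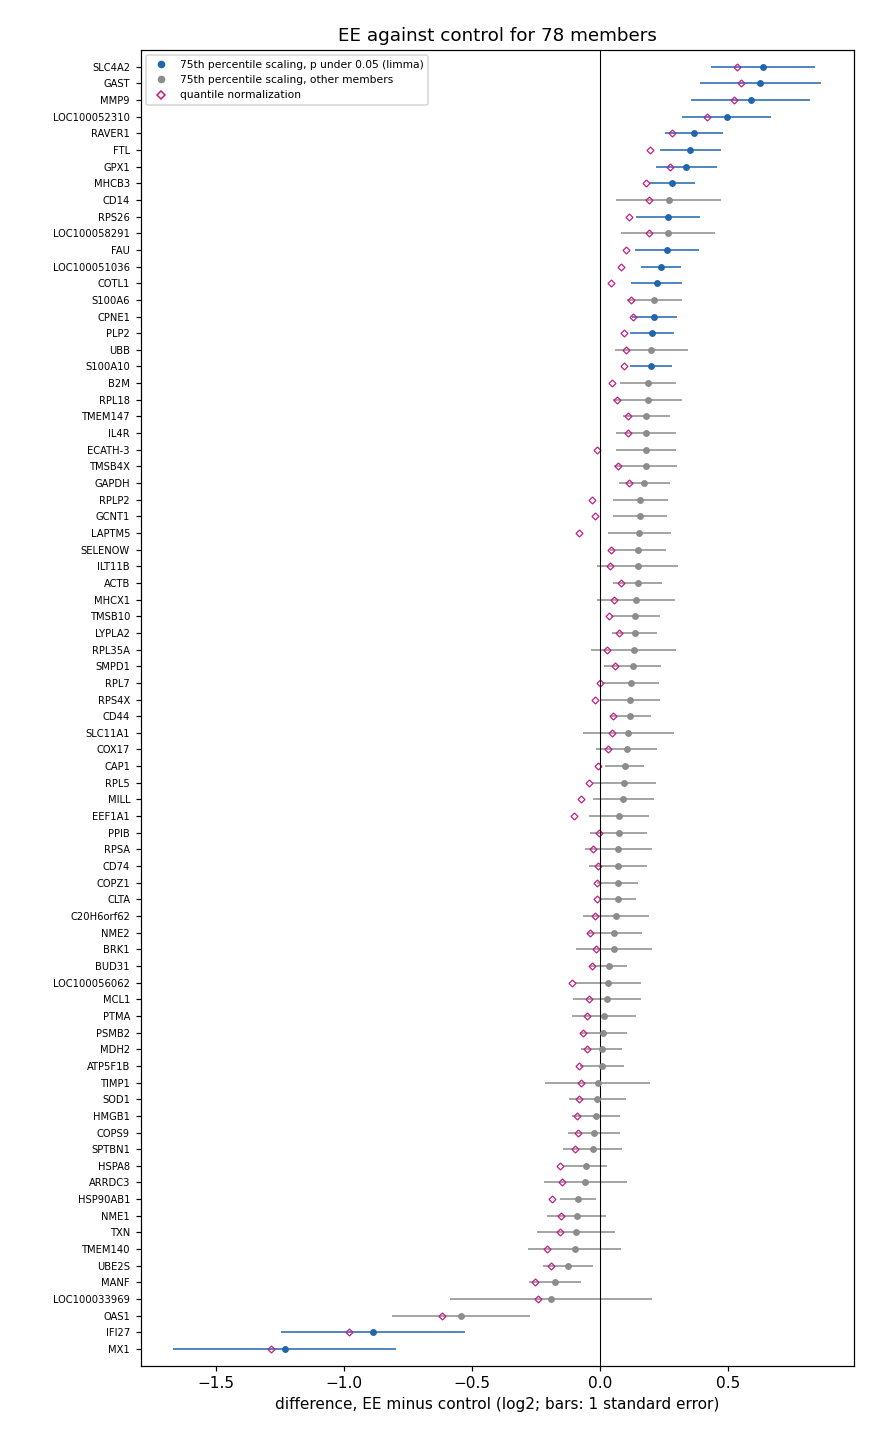
Difference between the groups (EE minus control, log2) for 78 of the 79 members, sorted by size, with bars of 1 standard error under the 75th percentile scaling and open diamonds for quantile normalization. Most estimates lie right of 0 under the first scaling, with a median of 0.12, and around 0 under the second, with a median of -0.0081, while MX1, IFI27 and OAS1 lie far to the left under both.

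RAVER1, a nuclear protein that helps the splicing repressor PTB, was higher in the EE-treated horses. Its log2 signal ran from 13.57 over a median of 14.03 to 14.39 in the control horses and from 14.16 over 14.43 to 14.64 in the EE-treated horses. Each of the 10 EE-treated horses exceeded the control mean and 7 exceeded the highest control horse, though the ranges overlapped. The difference was 0.37 with a standard error of 0.11 (limma, p = 0.0038, adjusted p = 0.243), and all 5 of its probes were at an unadjusted p under 0.05. Under quantile normalization it was 0.28 (p = 0.016), short of the threshold. It was 0.74 on slide 1 and -0.001 on slide 2, and 0.36, 0.39 and 0.46 on the others. With 1 horse left out, RAVER1 passed the threshold in 6 of 19 fits, those without horse650, horse474 or horse472 of the control group or without horse642, horse468 or horse469 of the EE-treated group. In the other 13 it did not pass, and its difference was smallest, at 0.31, without control horse477.

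SLC4A2, an exchanger of chloride and bicarbonate, missed the threshold with p = 0.0051 in limma. It ran from 13.40 over a median of 14.46 to 15.03 in the control horses and from 14.12 over 15.02 to 15.42 in the EE-treated horses. The low end of the EE-treated group was horse468 alone, and the other 9 horses of that group began at 14.87. The difference was 0.64 with a standard error of 0.20, from -0.26 on slide 2 to 1.57 on slide 1. GAST ran from 12.04 over a median of 13.52 to 13.98 in the control horses and from 12.90 over 14.02 to 14.43 in the EE-treated horses. The EE-treated horses were shifted upwards, with 9 of 10 above the control mean. Its difference was 0.63 with a standard error of 0.24 (limma, p = 0.016), and it too was below 0 on slide 2, at -0.40. RAVER1, SLC4A2 and GAST had the same lowest horse in each group, horse477 among the controls and horse468 among the EE-treated horses. Since these genes moved together in such horses, they are not separate evidence of a difference.

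Antigen presentation genes had estimates above 0 in 7 of 7 cases, from 0.033 to 0.50, and 2 of them were at an unadjusted p under 0.05. Of the genes and probes as bright as the members, 79.6% were above 0 and 14.4% were higher at this p. On the antigen presentation list, which did not hold LOC100052310, 5 genes were named. Of these 1 was higher and 0 lower at this p in the main scaling, beside 7.45% and 4.27% of the whole table. Under quantile normalization 4 of 7 estimates were above 0, with -0.075 for MILL and -0.11 for LOC100056062 among the others, and LOC100052310 alone was at this p. MHCB3, a class I heavy chain gene, ran from 15.71 over a median of 15.93 to 16.19 in the control horses and from 15.96 over 16.24 to 16.46 in the EE-treated horses. Each of the 10 EE-treated horses exceeded the control mean, and 6 were above every control horse. The difference was 0.28 with a standard error of 0.091 (limma, p = 0.0057, adjusted p = 0.271), and it was above 0 on all 5 slides, but under quantile normalization it was 0.18 (p = 0.12). LOC100052310, the DRB gene of class II, ran from 12.73 over a median of 13.32 to 13.56 in the control horses and from 12.99 over 13.77 to 14.24 in the EE-treated horses. Its EE-treated horses reached further up, 7 of 10 above every control horse, while 2 lay below the control mean. The difference was 0.50 with a standard error of 0.17 (limma, p = 0.0099). B2M differed by 0.19 (limma, p = 0.098) and MILL by 0.092 (p = 0.45).

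Among the iron and redox genes 2 of 6 were at an unadjusted p under 0.05. FTL ran from 16.23 over a median of 16.35 to 16.66 in the control horses and from 16.28 over 16.69 to 17.31 in the EE-treated horses. The control horses sat close together and 6 EE-treated horses were above all of them. The difference of FTL was 0.35 with a standard error of 0.12 (limma, p = 0.0073), above 0 on all 5 slides, and under quantile normalization it was 0.20 (p = 0.064). GPX1, which removes hydrogen peroxide with glutathione, ran from 12.63 over a median of 12.85 to 13.29 in the control horses and from 12.87 over 13.26 to 13.55 in the EE-treated horses. Its groups overlapped over much of their ranges, and 9 of 10 EE-treated horses were above the control mean. The difference was 0.34 with a standard error of 0.12 (limma, p = 0.010). Over the 10 named genes of the iron, haem and redox list, 3 were higher at this p in the main scaling, FTL and GPX1 among them. In the list 0 were lower, and the shares of the whole table were 7.45% higher and 4.27% lower.

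The granule gene MMP9, a gelatinase that neutrophils release, ran from 11.72 over a median of 12.81 to 13.76 in the control horses and from 12.94 over 13.37 to 14.04 in the EE-treated horses. The control horses were spread more widely, and their mean was exceeded by each of the 10 EE-treated horses. The difference was 0.59 with a standard error of 0.23 (limma, p = 0.020), from -0.049 on slide 1 to 1.75 on slide 5. By the control horses alone MMP9 was at rank 81, outside the limit, and by the EE-treated horses at rank 66. Its difference is therefore in part a condition of its membership. Of the 19 entries of the neutrophil marker list 3 were named on the arrays, MMP9 among them, and the log2 of their summed signal ran from 11.98 to 13.87 in the control horses and from 13.10 to 14.12 in the EE-treated horses. MMP9 itself makes up most of that sum. Of the other 2, LTF differed by -0.27 (limma, p = 0.60) and IL1R2 by 0.24 (p = 0.37). The part of cell numbers in the MMP9 result was not tested. ECATH-3 differed by 0.18 with a standard error of 0.12 (limma, p = 0.14).

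The 10 translation genes all had estimates above 0, from 0.073 to 0.27, and 2 were at an unadjusted p under 0.05. Under quantile normalization 4 of the 10 were above 0 and 0 at this p, with 0.12 for RPS26 (p = 0.14) and 0.10 for FAU (p = 0.20). RPS26 ran from 16.005 over a median of 16.06 to 16.59 in the control horses and from 15.99 over 16.49 to 16.88 in the EE-treated horses. FAU ran from 16.11 over a median of 16.33 to 16.89 and from 16.29 over 16.66 to 17.10. In both genes the EE-treated horses leaned upwards within ranges that were largely shared. RPS26 differed by 0.27 with a standard error of 0.12 (limma, p = 0.044) and FAU by 0.26 with the same rounded error (p = 0.048). RPLP2 differed by 0.16 (limma, p = 0.16). Since these genes moved together from horse to horse, they are not separate evidence of a difference. On the full list of ribosome and translation genes, 16 were named. In the main scaling 2 of these were higher and 1 lower at an unadjusted p under 0.05, beside 7.45% and 4.27% of the whole table.

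Smaller differences at an unadjusted p under 0.05 in limma belonged to members of other roles. LOC100051036 differed by 0.24 with a standard error of 0.080 (p = 0.0071), and 8 of 10 EE-treated horses were above every control horse. COTL1 differed by 0.22 (p = 0.037), CPNE1 by 0.21 (p = 0.024), PLP2 by 0.20 (p = 0.028) and S100A10, a partner of annexin 2, by 0.20 (p = 0.026). Under quantile normalization these 5 were no longer at this p, and their differences fell to 0.082 (p = 0.12) for LOC100051036, 0.042 (p = 0.64) for COTL1, 0.13 (p = 0.086) for CPNE1, 0.095 (p = 0.11) for PLP2 and 0.096 (p = 0.091) for S100A10. S100A6 just missed in the main scaling with 0.21 (p = 0.063). Of the cytoskeleton genes 6 of 7 had an estimate above 0 and COTL1 alone was at this p, against 4 of 7 and 0 genes under quantile normalization. In the main scaling 79.6% of the as bright genes and probes were above 0, and 14.4% were higher at this p. TMSB10, which holds actin monomers, differed by 0.14 (p = 0.16). LAPTM5 and GCNT1 differed by 0.15 (p = 0.22) and 0.16 (p = 0.16).

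The interferon-induced genes stood lower in the EE-treated horses, 3 of 3 with an estimate below 0 and 2 of them, MX1 and IFI27, at an unadjusted p under 0.05. At this p 4.27% of the whole table and 1.31% of the as bright genes and probes were lower. The 3 interferon-induced genes moved together from horse to horse, so they are not separate evidence of a difference. MX1 belongs to the members only through the high signal of the control horses, so its difference is in part a condition of its membership and is no support for the others. IFI27 and OAS1 were among the 80 highest in either group alone, at ranks 31 and 43 by the control horses and at ranks 54 and 62 by the EE-treated horses. MX1 ran from 12.24 over a median of 13.16 to 15.53 in the control horses and from 11.18 over 12.14 to 13.40 in the EE-treated horses. The groups overlapped in the lower part of the control range, while 4 control horses were above every EE-treated horse and 6 EE-treated horses below every control horse. The difference of MX1 was -1.23 with a standard error of 0.44 (limma, p = 0.010, adjusted p = 0.304), and each of the 10 EE-treated horses was under the mean of the controls. IFI27, an interferon-induced protein of mitochondria, ran from 13.47 over a median of 14.89 to 15.59 in the control horses and from 12.79 over 13.43 to 15.43 in the EE-treated horses. In the EE-treated group 8 horses were below the control mean, and the 2 others, horse646 and horse469, were as high as the upper control horses. The difference of IFI27 was -0.89 with a standard error of 0.36 (limma, p = 0.023).

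OAS1, an enzyme that senses double-stranded RNA, ran from 13.06 over a median of 13.71 to 14.99 in the control horses and from 12.72 over 13.52 to 14.63 in the EE-treated horses. Most horses of both groups lay together between, and horse476, horse470 and horse645 of the control group and EE-treated horse469 stood above. The difference of OAS1 was -0.54 with a standard error of 0.27 (limma, p = 0.059). On slide 5 MX1 and IFI27 went the other way, with differences of 0.40 and 0.41, while on slides 1 to 4 they ran from -2.19 to -0.25 for MX1 and from -1.72 to -0.49 for IFI27. OAS1 also went the other way on slide 5, where EE-treated horse469 at 14.63 and horse475 at 13.69 were above control horse471 at 13.61. Quantile normalization gave -1.28 for MX1, -0.98 for IFI27 and -0.62 for OAS1. Without control horse476 the differences were -0.98, -0.76 and -0.42.

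**Figure D5:**
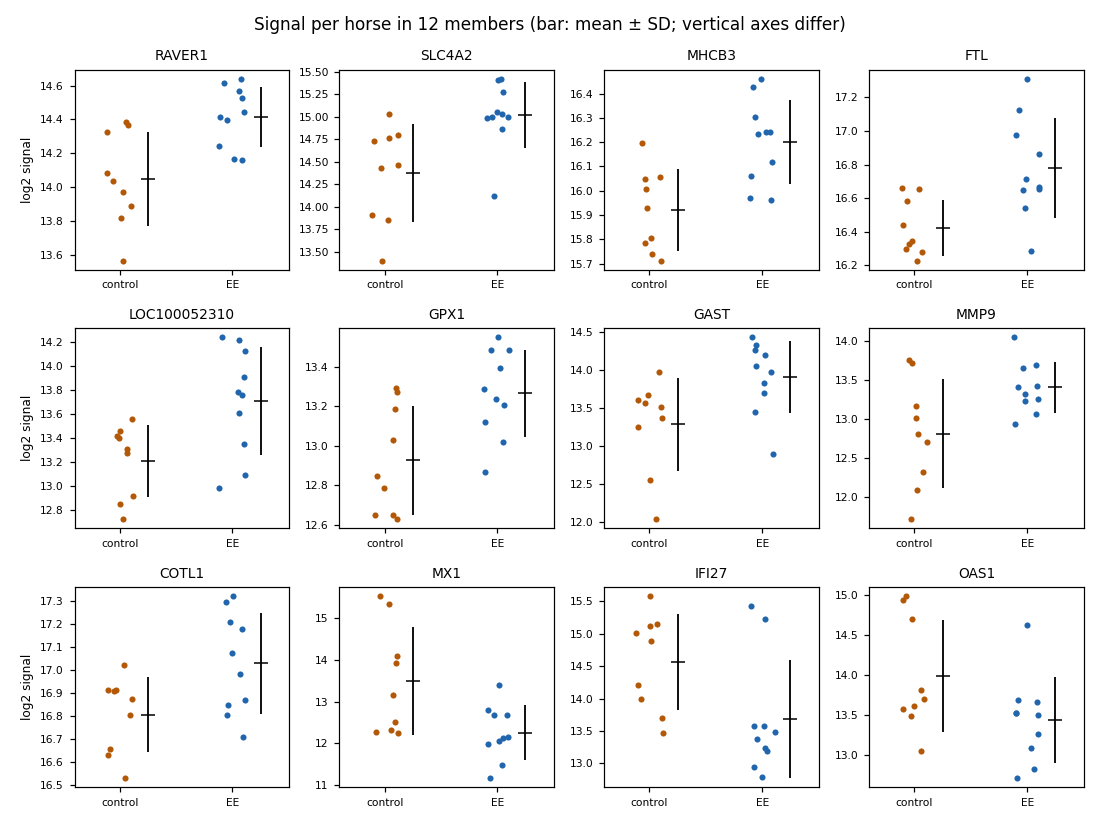
Log2 signal of 12 members in the control and EE-treated horses (1 point per horse, bar for mean ± SD, n = 9 and 10, vertical axes differ). RAVER1, MHCB3 and FTL show a shift of most EE-treated horses upwards within overlapping ranges, whereas in MX1 4 control horses lie above every EE-treated horse and 6 EE-treated horses below every control horse, and in OAS1 3 and 2 do.

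The folding and turnover genes had no member at an unadjusted p under 0.05 and a median difference of -0.038, with 3 of 8 estimates above 0. MANF, a stress-induced protein of the endoplasmic reticulum, ran from 13.92 over a median of 14.23 to 14.52 in the control horses and from 13.86 over 14.005 to 14.41 in the EE-treated horses. Its ranges overlapped, with 4 EE-treated horses below every control horse and 3 control horses above every EE-treated horse. The difference was -0.17 with a standard error of 0.10 (limma, p = 0.10). UBE2S differed by -0.12 (limma, p = 0.23), HSP90AB1 by -0.085 (p = 0.24) and HSPA8 by -0.055 (p = 0.52). Under quantile normalization these 4 genes were at an unadjusted p under 0.05, with -0.25 for MANF, -0.19 for UBE2S, -0.19 for HSP90AB1 and -0.16 for HSPA8. In the main scaling, 0 of the 15 named genes on the folding and turnover list were higher and 0 lower at this p. The shares of the whole table were 7.45% and 4.27%. Values near 0 were also found for ATP5F1B, the catalytic beta subunit of ATP synthase, with 0.0082 (p = 0.93), and for PTMA, with 0.018 (p = 0.88).

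Sex was compared in the same horses with the treatment in the fit. At an unadjusted p under 0.05 in limma 6 members were lower in males, beside 3.11% of the whole table and 6% of the as bright ones, and 2 were higher, beside 2.82% and 3.33%. The smallest adjusted p was 0.712. NME1, a nucleoside diphosphate kinase, was 12.87 ± 0.21 (SD, n = 10) in males and 13.17 ± 0.16 (SD, n = 9) in females. Its fitted difference, male minus female, was -0.35 with a standard error of 0.093 (limma, p = 0.0013). The actin-binding TMSB4X differed by -0.33 (limma, p = 0.0064) and the isomerase PPIB by -0.27 (p = 0.015). Higher in males were ARRDC3, with 0.40 (limma, p = 0.013), and LOC100033969, with 0.83 (p = 0.038). HMGB1, SELENOW and RPLP2 were the other members lower in males. After quantile normalization 6 members were lower in males at this p, beside 3.85% of the whole table and 6.98% of the as bright ones. Another 6 were higher, beside 3.39% and 7.12%. With slide as a block 5 were lower and 0 higher, and no share over the whole table was counted there. At an unadjusted p under 0.005 with a 20% difference, limma called 1 of 79 members for sex, NME1. The shares were 0.573% of the whole table and 0.375% of the as bright ones. NME1 was not called without EE-treated horse473 and not with slide as a block. The difference in response to enrichment between the sexes was at an unadjusted p under 0.05 for 2 members, UBB and SLC11A1, beside 3.07% of the whole table and 0.703% of the as bright ones, and the smallest adjusted p was 0.982.

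Signs of other cell types were looked at in the same arrays. Red cell markers were named for 5 of 29 entries, and the log2 of their summed signal ran from 11.59 to 15.33 in the control horses and from 11.57 to 16.79 in the EE-treated horses, with HBZ and TFRC not well above background on any array. Platelet markers, 5 of 19, ran from 11.63 to 12.93 and from 11.73 to 13.46. Monocyte markers, 3 of 13 with the member CD14 among them, ran from 12.55 to 14.14 and from 13.14 to 14.53. T cell markers, 4 of 24, ran from 9.25 to 10.31 and from 9.39 to 10.20, and NK and cytotoxic cell markers, 8 of 19 with LY49D never well above background, from 11.43 to 14.29 and from 11.32 to 13.67. B cell markers, 2 of 20, ran from 10.01 to 10.46 and from 10.28 to 10.66, and eosinophil and basophil markers, 2 of 16, from 9.30 to 11.60 and from 9.61 to 11.71. These ranges overlapped between the groups for each list. Several of the sums rested largely on 1 gene by mean log2 signal. This was CD14 (13.61) for monocytes, SELP (12.32) for platelets, GZMB (12.21) for NK and cytotoxic cells and FCER1A (10.57) for eosinophils and basophils. For these lists the overlap describes that gene more than the cell type. Single markers still differed at an unadjusted p under 0.05 in limma. FCER2, one of the B cell markers and dimmer than CD40, which carries their sum, was higher in the EE-treated horses by 0.89 (p = 0.00027, adjusted p = 0.202) and past the threshold of the study's methods. KIT of the eosinophil and basophil list was higher by 0.40 (p = 0.047) and SLC4A1 of the red cell list by 0.45 (p = 0.033), well above background on 9 and 2 arrays. The part of these cell types in the members' differences was not tested.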

How the data were processed

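Blood RNA of 19 horses was measured on 1-colour Agilent arrays, 1 array per horse. The authors scanned the arrays and deposited spot intensities corrected for background by Feature Extraction (version 9.1 per the labels, 10.7.3.1 per the file headers), and also deposited log2 values of the same arrays. For the members' 232 probes these log2 values differed by at most 0.000507 from those computed here. The number of columns that could be tied to no sample was 0.

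Each array was scaled to a 75th percentile of 500 over the non-control spots, log2 was taken, spots marked as outliers were left out, and probes of a gene were averaged. Names came through a RefSeq accession for 1781 of 3275 such probes, by a table of the assembly TB-T2T. The files name no genome build, so no coordinates are given. The groups were compared over 42402 genes and unnamed probes in R 4.3.3 by limma 3.58.1 (its functions lmFit and eBayes, tested on simulated data), without covariates, and p-values were adjusted by Benjamini-Hochberg over all of them. Tables and figures were made with Python 3.11.15, pandas 2.3.3, numpy 2.4.6 and matplotlib 3.10.9. The precision is limited by the number of arrays, and on each array 61.2% to 69.6% of spots exceeded background clearly.

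Members, lists and tests were chosen with earlier results of these data known, and roles of members on no list were added afterwards. All counts are over the 79 members, but 1 of them is not reported here by itself and the figures show 78. Values are given for the 10 highest means, members past the threshold of the study (p under 0.005 and 20%), the 6 smallest p in each direction, the 6 largest and 4 smallest SDs, the 3 smallest p in each direction for sex, genes next to rank 80, and the highest member of each list with at least 3 members. Other members at an unadjusted p under 0.05, and those named for their probes, for a horse that stands apart or for the interaction, were chosen after their values were seen. The third member higher in males was not at an unadjusted p under 0.05 and is not described. The alternatives were a filter on dim probes, quantile normalization, median centring, outlier spots kept, slide as a block, sex or array brightness as a covariate, a random-variance test, the deposited log2 values, the brightest probe of a gene, normexp background correction of the median signal, and each horse left out.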

Additional observations from a re-analysis of the deposited data

Results flagged for a closer look

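Among the 158 sets of values (79 members in each group), 9 had a horse that stood apart from the rest of its group by Dixon's criterion, and chance alone marks about 5% of sets. Control horse471 was high for B2M, at 16.87 against 16.12 to 16.47 among the remaining controls, and for SOD1, at 14.21 against 13.34 to 13.76. EE-treated horse469 was high for ILT11B, at 16.29 against 14.94 to 15.61, for IL4R, at 14.72 against 13.93 to 14.27, and for OAS1, at 14.63 against 12.72 to 13.69. EE-treated horse468 was low for SLC4A2, at 14.12 against 14.87 to 15.42. Control horse476 was low for BRK1, at 12.87 against 13.42 to 13.96, and for PPIB, at 12.76 against 13.13 to 13.50. Control horse650 was low for C20H6orf62, at 12.77 against 13.44 to 14.01.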

How the results depend on the processing

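No paired analysis was possible because the groups share no horse and no replicate number. The number of members past p under 0.005 and a 20% difference was 1, and it was 0 under quantile normalization, 2 after centring on the median (RAVER1 and SLC4A2), 3 after a filter on dim probes (with MHCB3), 2 with slide as a block (RAVER1 and LOC100052310), 2 with the deposited log2 values and 4 with normexp (with MX1). With sex or array brightness as a covariate the count stayed at 1 but the member was MHCB3, and on the arrays of scan 1 alone, chosen after seeing the data, it was IFI27. Leaving out 1 horse gave 0 (for instance without control horse477 or EE-treated horse648) to 3 (for instance without control horse650 or EE-treated horse468). With 1 horse left out, the count at an unadjusted p under 0.05 ran from 13 without control horse477 to 20 without control horse650. With array brightness as a covariate it was 12, beside 8.71% of the whole table and 10.9% of the as bright ones. At p under 0.005 and a 20% difference, the share of the whole table was 1.95% under quantile normalization and 1.06% with array brightness. For the other alternatives no share was counted, so their counts do not set the members apart from the whole table. No alternative brought a member under an adjusted p of 0.05. The median difference over the members was -0.0081 under quantile normalization and 0.073 with array brightness as a covariate, and ran from 0.098 without EE-treated horse648 to 0.135 without EE-treated horse475. The median over the whole table, 0.063 in the main scaling, was 0.0039 after the filter on dim probes. It was 0.134 with the deposited log2 values and 0.137 with normexp.

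Quantile normalization turned LAPTM5 (-0.080), GCNT1 (-0.020), RPLP2 (-0.029), ECATH-3 (-0.012), MILL (-0.075), ATP5F1B (-0.079) and PTMA (-0.051). Brightness as a covariate turned MILL (-0.020) and ATP5F1B (-0.017), sex as a covariate PTMA (-0.0066), normexp ATP5F1B (-0.0089) and PTMA (-0.014), and scan 1 alone ATP5F1B (-0.034). With 1 horse left out ATP5F1B ran from -0.023 to 0.042 and PTMA from -0.040 to 0.063. The cause was not tested. The number of members at an unadjusted p under 0.05 for sex was 8, and it was 5 with slide as a block and 5 without EE-treated horse473 to 15 without EE-treated horse468. For sex no share over the whole table was counted with slide as a block or with 1 horse left out. The median SD ran from 0.229 to 0.247 with 1 horse left out, and 78 or 79 members stayed among the 80 highest.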
